A study of Mus musculus with 6 samples.

Results

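Cyclins and cyclin-dependent kinases (CDKs) drive the cell division cycle, and 10 of their genes were examined in mouse liver: the G1 members Ccnd1, Ccnd2, Ccnd3 and Cdk4, the G1/S and S members Ccne1, Ccne2 and Ccna2, and the G2/M members Ccnb1, Ccnb2 and Cdk1. The members are all probe sets of the array that the platform annotation names with exactly 1 of these symbols. There were 20 such probe sets for 9 of the 10 genes, among 22626 probe sets for 12393 singly named genes in all, and Ccnb1 was not analysed here. The livers came from 6 male KK/H1J mice of 12 to 14 weeks and about 35 g, a strain in which many genes together lead to obesity and type 2 diabetes. In 3 mice (numbers 23, 28 and 36) a tail-vein injection delivered Ad-BPD, an adenovirus carrying a bisphosphatase deficient form (BPD) of PFK-2/FBPase-2, the bifunctional enzyme that makes and breaks down the sugar bisphosphate that activates glycolysis. The 3 control mice (22, 29 and 31) received Ad-GFP at the same stated dose, so both groups carried an adenovirus, and all were freely fed and killed at 7 days. The labels name no promoter for either transgene and no liver without virus. Each array held the RNA of 1 mouse.

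A cyclin is a regulatory subunit that appears in a limited part of the cycle and switches on the kinase it binds. D-type cyclins with Cdk4 start the release of E2F transcription factors from the retinoblastoma protein in G1, E-type cyclins with Cdk2 complete it and open S phase, cyclin A2 acts in S and G2, and B-type cyclins with Cdk1 drive mitosis. Most hepatocytes of an adult liver are outside the cycle and re-enter it after loss of tissue or injury, when Ccnd1 is the D-type cyclin best known to respond.

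Every measured gene of the S and G2/M groups was higher in the BPD livers, and the G1 group was divided. Ccne2, Cdk1, Ccnb2 and Ccne1 rose between 4.24-fold and 7.14-fold on the scale of the fit, Ccna2 by 2.56-fold or 3.47-fold according to the probe set, Ccnd1 between 3.03-fold and 4.88-fold, and Cdk4 by up to 1.93-fold. Ccnd2 and Ccnd3 did not pass the test. Of the 17 member probe sets bright enough to be tested, 11 rose, 0 fell and 6 did not pass, beside 8.29% of all 13575 probe sets tested that rose and 20.3% that fell. The test was limma's moderated test on log2(signal + 16.3), with each array centred on its median and p-values adjusted by Benjamini and Hochberg over all 13575 probe sets, with a threshold of 0.05. Of the 17, 5 had a mean signal in GFP livers below the 98.8 of the filter on dim probe sets and passed it through their BPD livers. They were the probe sets of Ccne1, Ccne2 and Ccnb2, 1417419_at of Ccnd1 and 1455956_x_at of Ccnd2. The fit was therefore also run without the filter. There 12 of all 20 member probe sets rose and 0 fell, beside 5.27% of 22626 that rose. In 15 of the 20 every BPD liver lay above every GFP liver after centring, beside 10.5% of all probe sets, and so it was in 13 of the 17 tested, beside 12.7%. Without BPD mouse 28, 7 of the 17 rose and calls over all probe sets numbered 2006, against 3885 with all mice.

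**Figure D1:**
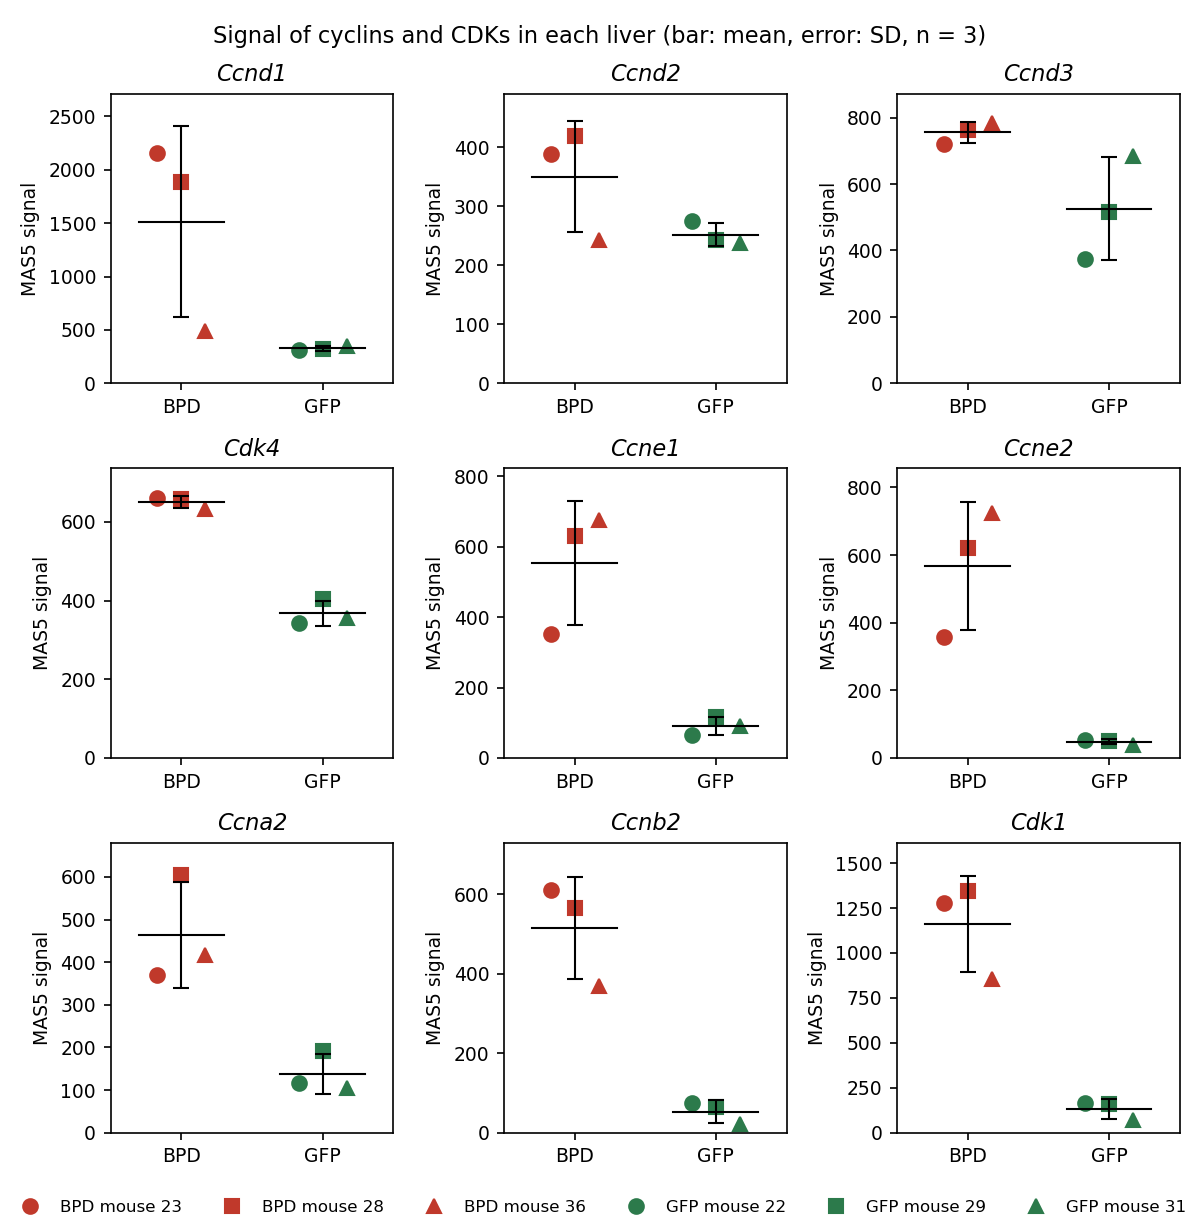
Deposited MAS5 signal (linear axis from 0) of the probe set with the highest mean of each gene in 3 BPD livers (red, left) and 3 GFP livers (green, right). Horizontal bars are means and error bars SD, and symbols mark the mice. Ccnd1 of BPD mouse 36 lies near the GFP livers (494, against 310 to 354), whereas its Ccne2 is the highest of all (725).

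The groups overlapped in the ratios that read RNA quality but not in overall brightness. The median signal was 174, 197 and 177 on the BPD arrays and 135, 157 and 143 on the GFP arrays, which is why arrays were centred. The ratio of 3′ to 5′ signal of the Gapdh control was 0.735 to 0.863 on BPD and 0.785 to 0.900 on GFP arrays. That of the actin control was 1.75, 1.23 and 1.26 on BPD arrays 23, 28 and 36 and 1.40 to 1.59 on GFP arrays, so array 23 had the highest. BPD mouse 36 was the BPD mouse nearest to the GFP group, though its array was still closer to the other BPD arrays. Its array correlated with the GFP arrays at Pearson r of 0.901 to 0.942 over the tested probe sets, against 0.851 to 0.901 for the other BPD arrays, so results that rest on it are also given without it. The median log2 difference of all tested probe sets was -0.21 after centring, 0.10 in the deposited scaling and -0.06 after quantile normalization. Calls over all probe sets numbered 1126 higher and 2759 lower after centring. In the deposited scaling they numbered 2265 higher (16.7%) and 1314 lower (9.68%), and after quantile normalization 1686 higher (12.4%) and 1633 lower (12%). Of genes 17.2% were higher and 11.1% lower in the deposited scaling, against 12.7% and 12.9% after quantile normalization. Centring and the deposited scaling differ by 1 constant for all probe sets, so relative to those medians they give the same values. With quantile normalization Cdk1 lay 2.96 and Ccne1 2.22 above the median, against 2.95 and 2.29 after centring (log2 difference). All 9 measured hepatocyte markers passed the filter, with Alb at 14784 to 17081 in BPD and 17975 to 21340 in GFP livers, so the tissue matched its label. The isoform in the vector could not be checked, since of the PFK-2 family only Pfkfb2 and Pfkfb3 had named probe sets, and Pfkfb3 did not pass (127, 161 and 77.1 in BPD livers, 92.5, 112 and 91.0 in GFP livers).

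Among the G1 members Ccnd1, the D-type cyclin that answers to growth factors, had the highest rise and the widest spread between mice. Its probe set 1417420_at had signals of 2194, 2122 and 439 in BPD livers 23, 28 and 36, against 196, 220 and 251 in GFP livers 22, 29 and 31. Every BPD liver lay above every GFP liver, but liver 36 was far closer to the GFP livers than to the other BPD livers. The log2 difference was 2.14 ± 0.50 (SE, n = 3 each, limma adjusted p = 0.0128). Probe set 1417419_at had the same order of groups, with 1281, 1015 and 220 in BPD livers and 120, 93.8 and 80.6 in GFP livers (log2 difference 2.29 ± 0.53, limma adjusted p = 0.0119). Probe set 1448698_at gave 2160, 1887 and 494 in BPD livers and 310, 320 and 354 in GFP livers (1.60 ± 0.45, limma adjusted p = 0.0269). All 3 probe sets of Ccnd1 thus rose, and all 3 placed liver 36 between the groups.

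The calls of Ccnd1 depended on single mice. Without BPD mouse 36 the differences were 2.87 for 1417420_at, 3.03 for 1417419_at and 2.24 for 1448698_at, with limma adjusted p of 5.6e-05, 1.3e-04 and 1.8e-04. Without BPD mouse 28 none of the 3 passed (limma adjusted p of 0.0544, 0.052 and 0.101, at 1.83, 2.04 and 1.37). Without BPD mouse 23 or any 1 GFP mouse, 1448698_at alone lost its call (limma adjusted p of 0.0502 to 0.0804), as it did with robust variance estimation (0.0548).

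Some markers of other cell types moved with Ccnd1 across the same livers. The summed signal of the 8 stellate cell and matrix markers was 13087, 11497 and 2417 in BPD livers 23, 28 and 36, against 2143, 2139 and 2006 in GFP livers 22, 29 and 31. In these sums of deposited signals liver 36 was just above the GFP range, but its markers were divided. Its Col1a1, Col1a2 and Col3a1 (99.6, 388 and 814) lay above every GFP liver (at most 27.9, 339 and 361). Its Des, Lrat, Pdgfrb and Reln (28.7, 68.5, 98.2 and 491) lay below every GFP liver (at least 69.5, 94.9, 102 and 525), and its Acta2 lay within their range. Of these 8 markers, all bright enough to test, 2 rose, namely the collagen chains Col1a1 and Col3a1, whereas Acta2, Des and Lrat, which define stellate cells and their activated form, did not pass. The 8 neutrophil markers summed to 19334, 19482 and 9553 in BPD livers and to 1283 to 3716 in GFP livers, with 5 of the 6 tested risen. Lcn2 made up most of each sum, with 12421, 11298 and 7796 in BPD livers and 787 to 3264 in GFP livers. In liver 36 Ngp (245), Mpo (137) and Camp (11.0) lay near the highest GFP liver (167, 124 and 10.2). There S100a8 (648) and S100a9 (468) lay well above it (135 and 102). The 10 macrophage markers summed to 28347, 26861 and 14274 in BPD livers and to 3911 to 12283 in GFP livers, with 6 of the 9 tested risen and Marco at 5.31 to 20.2 in every liver. Clec4f (-0.58), Vsig4 (0.48) and Csf1r (1.19) did not pass (limma adjusted p of 0.471, 0.557 and 0.0803). In BPD liver 36 Clec4f was at 112 and Vsig4 at 259, below every GFP liver (299 to 692 and 352 to 713). Of the defining markers of other lists, the biliary keratin Krt19 (19.8 to 140 in BPD and 8.95 to 10.7 in GFP livers) and the T cell gene Cd3e (78.8 to 114 in BPD and 15.4 to 29.7 in GFP livers) were too dim to test. After centring all 9 measured hepatocyte markers fell, summing to 93691 to 104891 in BPD livers and 138225 to 147383 in GFP livers. The deposited signals of Hnf4a overlapped (4405 to 5296 in BPD and 4804 to 6655 in GFP livers, limma adjusted p = 0.0471). Beside each marker count in this paragraph stand 8.75% of all 8151 genes tested that rose and 22.2% that fell. In the deposited scaling 17.2% rose and 11.1% fell, and the markers were not read there. The sums of endothelial markers (2521 to 3950 in BPD and 2330 to 3650 in GFP livers) and B and plasma cell markers (366 to 798 in BPD and 266 to 402 in GFP livers) overlapped. Those of T and NK cells (872 to 1216 in BPD and 260 to 688 in GFP livers) and cholangiocytes (347 to 846 in BPD and 145 to 227 in GFP livers) did not, but few of their markers could be tested. Of 7 T and NK markers 2 were tested and 1 rose, namely Cd3g, while Nkg7 did not pass (limma adjusted p = 0.0509) and the signals of Cd4 and Gzma overlapped. Of 5 cholangiocyte markers only Krt23 was tested, and it rose (216 to 450 in BPD and 25.3 to 67.0 in GFP livers), while the signals of Krt7, Epcam and Sox9 overlapped. The erythroid sums also overlapped (4103 to 6307 in BPD and 4118 to 4983 in GFP livers), but of 5 tested erythroid markers 3 rose and 1 fell, and the one that fell, Alas2, was the brightest in GFP livers. Hemgn, a gene of blood cell precursors, had signals of 386, 455 and 563 in BPD livers 23, 28 and 36 and of 13.4, 5.37 and 28.6 in GFP livers 22, 29 and 31 (3.66, limma adjusted p = 2.9e-04). Tfrc, the transferrin receptor, had 1415, 2226 and 3243 in BPD livers and 602, 824 and 673 in GFP livers (1.32, limma adjusted p = 0.00677), so for both genes the BPD livers stood in the order given below for the E-type cyclins. Slc4a1, the red cell anion exchanger, rose by 2.99 (limma adjusted p = 8.4e-04). The part of these cells in any result here was not tested, and in a piece of tissue more cells of a type and more RNA per cell cannot be told apart.

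Ccnd2 and Ccnd3, the D-type cyclins that also pair with Cdk4, did not pass the test in any tested probe set. The brightest probe set of Ccnd2, 1416122_at, had signals of 388, 419 and 242 in BPD livers 23, 28 and 36 and of 274, 243 and 238 in GFP livers 22, 29 and 31. The groups overlapped through liver 36, and the log2 difference was 0.11 ± 0.21 (limma adjusted p = 0.707). The other 3 tested probe sets of Ccnd2 had higher differences, of 0.69 ± 0.28 for 1430127_a_at, 0.64 ± 0.23 for 1434745_at and 0.57 ± 0.32 for 1455956_x_at (limma adjusted p of 0.0935, 0.0643 and 0.196). With the deposited scaling 1430127_a_at and 1434745_at passed (limma adjusted p of 0.0477 and 0.0177), and so did 1430127_a_at without BPD mouse 36 (0.996, limma adjusted p = 0.0119) and 1434745_at without GFP mouse 22 (0.88, limma adjusted p = 0.0201). The differences between the probe sets of Ccnd2 were not tested.

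The last 3 probe sets of Ccnd2 were too dim for the filter. In the fit without it 1416124_at passed (0.89 ± 0.22, limma adjusted p = 0.0263), but its signals of 17.2, 31.2 and 31.3 in BPD livers and of 3.07, 1.33 and 2.14 in GFP livers are all dim, those of the GFP livers and of BPD liver 23 lying about or below the added 16.3, so its size is uncertain. Probe sets 1448229_s_at (0.38 ± 0.23) and 1416123_at (-0.03 ± 0.27) did not pass there (limma adjusted p of 0.273 and 0.948). Ccnd3 has 1 probe set, with signals of 721, 762 and 783 in BPD livers and 375, 516 and 685 in GFP livers. These deposited signals do not overlap, but after centring GFP liver 31 lay highest of all 6, and the log2 difference was 0.25 ± 0.21 (limma adjusted p = 0.388). It did not pass under any alternative run, the deposited scaling included (0.55, limma adjusted p = 0.0862).

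Cdk4, the kinase of the D-type cyclins, was moderately higher and differed little between mice of a group. Its probe set 1422439_a_at had signals of 720, 650 and 617 in BPD livers 23, 28 and 36 and of 258, 269 and 281 in GFP livers 22, 29 and 31. The groups were far apart, and liver 36 was close to the other BPD livers. The log2 difference was 0.95 ± 0.16 (limma adjusted p = 0.00294), and it passed under every alternative run and with any mouse left out. Probe set 1422441_x_at, whose suffix marks probes that can match other transcripts, differed by 0.50 ± 0.14 (limma adjusted p = 0.0307). That call was lost whichever mouse was left out (limma adjusted p of 0.0575 to 0.0811) and with the Gapdh ratio as a covariate (0.0537). Probe set 1422440_at differed by 0.42 ± 0.15 and did not pass (limma adjusted p = 0.0579), but passed with the deposited scaling (0.72, limma adjusted p = 0.0067), with quantile normalization (0.51, limma adjusted p = 0.0244) and with a larger added constant (0.40, limma adjusted p = 0.0417). The groups did not overlap in any of the 3 probe sets.

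The promoter of Cdk4 is shown because this gene is a textbook target of Myc, which binds the E-box CACGTG. The 250 bases before its start (RefSeq, GRCm38.p6, chr10:127063285-127063534, plus strand) hold 4 E-boxes, in capitals, a word that 6.02% of 32851 promoter windows of this length hold. The E-box was added to the search after the sequence had been seen, and it reads alike on both strands.
Cdk4 promoter: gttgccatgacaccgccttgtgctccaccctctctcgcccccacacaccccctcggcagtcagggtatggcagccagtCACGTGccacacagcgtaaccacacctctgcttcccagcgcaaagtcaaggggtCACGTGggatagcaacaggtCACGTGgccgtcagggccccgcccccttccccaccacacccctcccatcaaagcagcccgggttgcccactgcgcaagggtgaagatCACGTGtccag
Myc itself had signals of 309, 388 and 223 in BPD livers and 186, 176 and 84.7 in GFP livers, which did not overlap as deposited. Its log2 difference of 0.70 ± 0.29 did not pass (limma adjusted p = 0.0952), except with the deposited scaling (0.999, limma adjusted p = 0.0441).

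**Figure D2:**
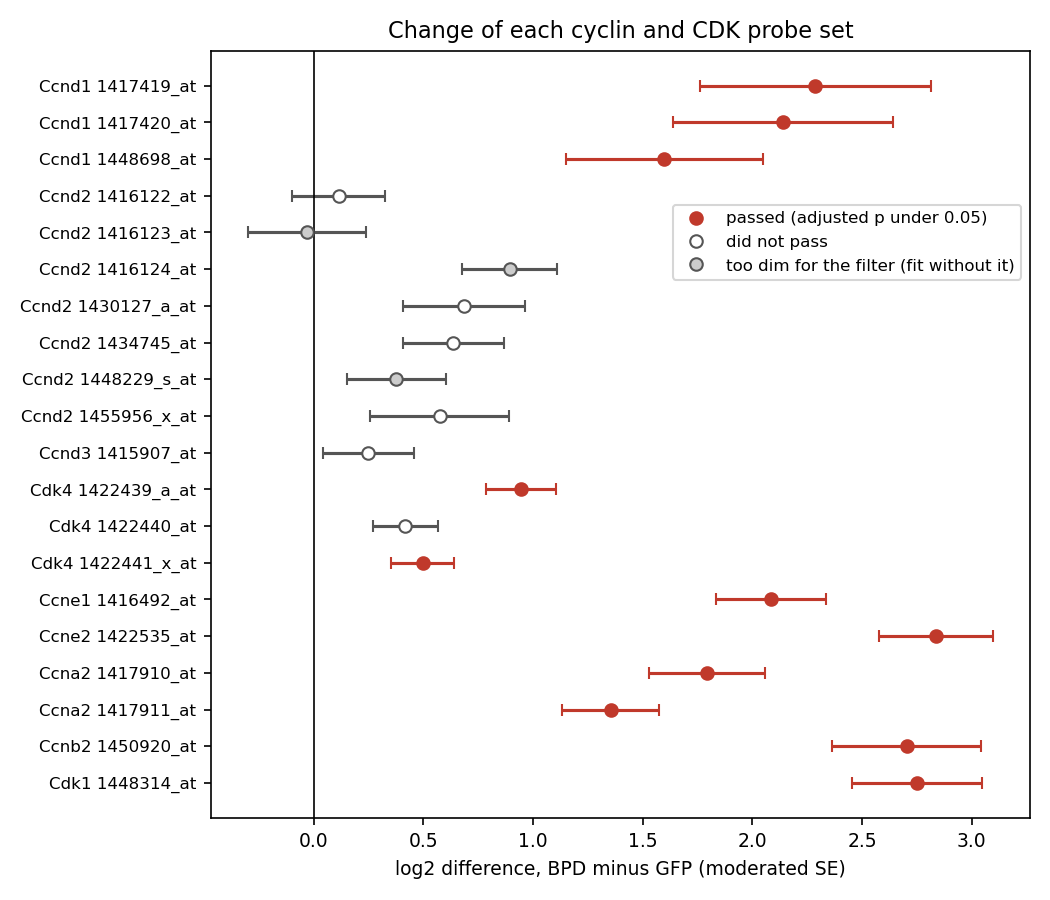
Log2 difference (BPD minus GFP, x axis) of each of the 20 member probe sets with its moderated SE. Red points passed at an adjusted p under 0.05, open points did not, and grey points were too dim for the filter and come from the fit without it. Ccne2, Cdk1 and Ccnb2 lie furthest right (2.84, 2.75 and 2.70), and the probe sets of Ccnd2 and Ccnd3 lie near 0 or within 1 of it.

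The E-type cyclins, which activate Cdk2 at the start of S phase, rose in all BPD livers, with a different order of mice from that of Ccnd1. Ccne2 had signals of 357, 621 and 725 in BPD livers 23, 28 and 36, against 53.8, 50.5 and 38.9 in GFP livers 22, 29 and 31. Liver 36, low for Ccnd1, was the highest for Ccne2, and liver 23, the highest for Ccnd1, was the lowest of the BPD livers. The log2 difference of 2.84 ± 0.26 (limma adjusted p = 3.6e-04) ranked 38 from the top among the 13575 probe sets kept by the filter. Ccne2 passed that filter through its BPD livers. Ccne1 had signals of 352, 631 and 677 in BPD livers and 64.3, 118 and 90.8 in GFP livers. The BPD livers stood in the same order as for Ccne2, and the log2 difference was 2.08 ± 0.25 (limma adjusted p = 8.4e-04). Both calls held under every alternative run and with any mouse left out (2.61 to 3.10 for Ccne2 and 1.89 to 2.34 for Ccne1).

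Cyclin A2 (Ccna2), the partner of Cdk2 in S phase and of Cdk1 in G2, rose in both of its probe sets. Probe set 1417911_at had signals of 370, 604 and 417 in BPD livers and 116, 192 and 104 in GFP livers. Probe set 1417910_at had 592, 611 and 407 in BPD livers and 161, 107 and 78.3 in GFP livers. The groups did not overlap in either, but liver 23 was the lowest BPD liver in the one and liver 36 in the other, so the order of the BPD mice is not settled for this gene. The log2 differences were 1.35 ± 0.22 and 1.79 ± 0.26 (limma adjusted p of 0.00269 and 0.00175), and both calls held under every alternative run and with any mouse left out.

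The G2/M members were raised in all 3 BPD livers. Cdk1, the kinase of mitosis, had signals of 1277, 1346 and 854 in BPD livers 23, 28 and 36, against 163, 161 and 68.3 in GFP livers 22, 29 and 31. Its log2 difference was 2.75 ± 0.30 (limma adjusted p = 5.7e-04), rank 41 of 13575. Ccnb2, a B-type cyclin that activates Cdk1, had 611, 566 and 368 in BPD livers and 75.1, 63.4 and 21.0 in GFP livers. Its log2 difference was 2.70 ± 0.34 (limma adjusted p = 9.8e-04), rank 44 of the 13575 kept by the filter, which Ccnb2 passed through its BPD livers. For both genes liver 36 was the lowest BPD liver and liver 31 the lowest GFP liver, yet liver 36 stayed far above every GFP liver. Both calls held under every alternative run and with any mouse left out (2.40 to 2.98 for Cdk1 and 2.31 to 2.99 for Ccnb2). GFP liver 31 lay close to the added constant for Ccnb2, so the size of its fold is uncertain. The difference was 2.06 with a constant 4 times larger and 2.99 with one 4 times smaller.

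The promoters of Cdk1 and Ccnb2 are shown because these genes moved together and because B-type cyclins and Cdk1 are known for CCAAT boxes and a cell cycle homology region (CHR). The windows are the 250 bases before the start of each gene in RefSeq (GRCm38.p6), on the minus strand, at chr10:69352913-69353162 for Cdk1 and at chr9:70421555-70421804 for Ccnb2. Capitals mark matches on either strand to CCAAT (written ATTGG where it lies on the other strand), to the CHR core TTTGAA and to the E2F cores TTCCCGC or TTGGCGC or TTCGCGC or TTGCCGC. The E2F cores were chosen after a search for longer forms had found no match in these windows.
Cdk1 promoter: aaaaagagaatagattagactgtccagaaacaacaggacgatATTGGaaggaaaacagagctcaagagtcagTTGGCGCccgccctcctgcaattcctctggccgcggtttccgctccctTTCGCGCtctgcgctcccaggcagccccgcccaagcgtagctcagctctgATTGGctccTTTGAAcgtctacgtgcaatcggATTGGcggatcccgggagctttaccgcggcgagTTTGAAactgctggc
Ccnb2 promoter: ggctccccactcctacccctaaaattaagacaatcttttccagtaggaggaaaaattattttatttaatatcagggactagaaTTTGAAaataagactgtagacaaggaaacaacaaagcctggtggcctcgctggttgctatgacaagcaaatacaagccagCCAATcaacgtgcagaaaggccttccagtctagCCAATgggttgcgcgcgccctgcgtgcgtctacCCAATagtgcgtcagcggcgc
Cdk1 has 3 CCAAT boxes, 2 CHR cores and 2 E2F cores, and Ccnb2 has 3 CCAAT boxes and 1 CHR core, with no overlap between matches in either window. Of 32851 windows of this length 33.8% hold CCAAT, 16% the CHR core and 7.89% an E2F core. Promoters of 6 of the 10 genes were at hand (7 windows), and those of Ccne1 and Cdk4 hold none of these words. The window of the B-type cyclin Ccnb1 holds 2 CCAAT boxes, 1 E2F core and 0 CHR cores. There the E2F core (bases -102 to -96) overlaps a CCAAT box (-99 to -95), so they are not separate matches. For Ccnd3, which did not pass, 1 window holds 1 CCAAT box. The TTTGAA of Ccnb2 starts at base -167, upstream of its CCAAT boxes at -87, -54 and -21. A match describes letters and was not tested as a binding site.

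**Figure D3:**
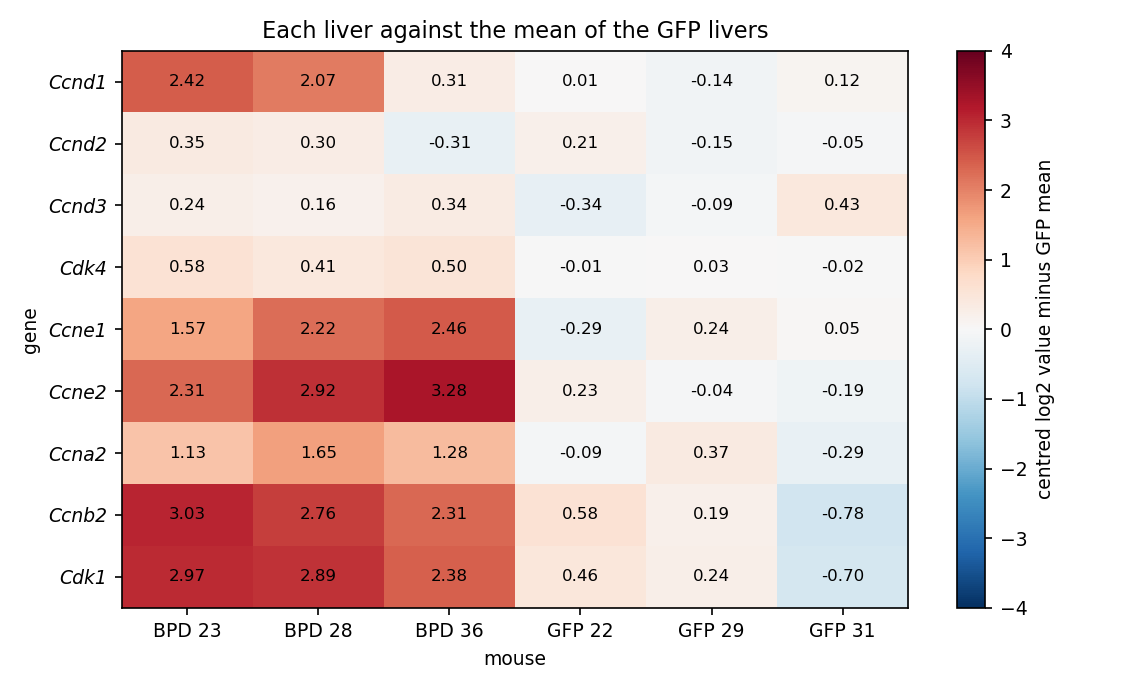
Centred log2 value of each liver minus the mean of the 3 GFP livers, for 1 probe set per gene (rows) in the BPD mice (left 3 columns) and GFP mice (right 3 columns). Red is above and blue below the GFP mean. Across BPD mice 23, 28 and 36 Ccnd1 stands at 2.42, 2.07 and 0.31 and Ccne2 at 2.31, 2.92 and 3.28.

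Grouped by phase, with 1 probe set per gene, 2 of 4 G1 genes rose with a median log2 difference of 0.37, all 3 G1/S and S genes with a median of 2.08, and both measured G2/M genes at 2.70 and 2.75. The G1 count rests on Ccnd1 1448698_at and Cdk4 1422441_x_at, so it was 1 of 4 without BPD mouse 36 and 0 of 4 without any other mouse, whereas the S and G2/M counts held whichever mouse was left out. The medians too depend on using the brightest probe set. It gave the lowest tested difference for Ccnd1 (1.60, others 2.14 and 2.29), Ccnd2 (0.11, others 0.57 to 0.69) and Ccna2 (1.35, other 1.79). For Cdk4 it gave 0.50, between 0.42 and 0.95. Among all 8151 genes tested 8.75% rose and 22.2% fell, with a median of -0.22. Ccne1, Ccne2 and Ccnb2 had a GFP mean under the filter signal and passed it through their BPD livers. Without the filter every measured S and G2/M gene kept its call (limma adjusted p of 0.00121 to 0.00715), beside 5.7% of 12393 genes that rose. Whether related members changed unequally was asked for 5 pairs with the within-array difference of their log2 values and an exact two-sided permutation test over the 6 arrays, which cannot give a p below 0.1. Each gene was read from its brightest probe set, 1422441_x_at for Cdk4, 1448698_at for Ccnd1 and 1416122_at for Ccnd2. Pairs with their other probe sets were not tested. Cdk1 shifted against Cdk4 by 2.25, with within-array values of 0.94, 1.02 and 0.42 in BPD livers and of -0.996, -1.24 and -2.14 in GFP livers. Ccnd1 shifted against Ccnd2 by 1.49 and Ccne2 against Ccne1 by 0.75. In these 3 pairs the groups did not overlap (exact permutation p = 0.1, adjusted over 5 pairs 0.167), and without overlap the test can give no smaller value. The shift of Ccne2 against Ccne1 was 0.48 with a constant 4 times larger and 0.88 with one 4 times smaller. Ccnd1 against Ccnd3 (1.35, exact permutation p = 0.2) and Ccnd2 against Ccnd3 (-0.13, exact permutation p = 0.9) overlapped.

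The rest of the cell cycle machinery was read from 6 lists of 87 genes, of which 61 were measured, 16 were too dim and 10 had no probe set named here. Of the 61, 33 rose and 2 fell, beside 8.75% and 22.2% of all genes tested. Since 11 of the 33 had a GFP mean under the filter, the lists were also read without it, where 35 of 77 rose and 2 fell, beside 5.7% and 12.7% of 12393 genes. Other cyclins mostly did not pass. Of 11 measured 2 rose and 0 fell, with a list median of -0.27 against -0.22 for all genes. These were Ccng1, a p53 target (signal 2401 ± 297 in BPD livers and 640 ± 85.9 in GFP livers, mean ± SD of 3 mice; log2 difference 1.58 ± 0.20), and Ccnf, the founding F-box protein (422 ± 64.3 in BPD and 120 ± 14.8 in GFP livers; 1.38 ± 0.17), with limma adjusted p of 9.3e-04 and 9.8e-04. Ccnh, a subunit of the CDK-activating kinase (-0.48 ± 0.18), and Ccni (-0.55 ± 0.21) did not pass (limma adjusted p of 0.0711 and 0.0713), and the other 7, most of them partners of transcriptional or splicing kinases, lay between -0.49 and -0.15, of which Ccng2, Ccnk, Ccnl2 and Ccnt1 turned positive in the deposited scaling. Without BPD mouse 36 Ccni fell (-0.74, limma adjusted p = 0.0208).

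Among 8 other CDKs 1 rose and 1 fell, about the share of all genes in each direction or below it. Cdk2, the kinase of cyclins E and A, was at 657, 1130 and 1065 in BPD livers 23, 28 and 36, in the same order of lowest mouse as the E-type cyclins, and at 352, 447 and 435 in GFP livers (0.85 ± 0.20, limma adjusted p = 0.0141). That call was lost without BPD mouse 28 (0.75, limma adjusted p = 0.0634) or GFP mouse 22 (0.79, limma adjusted p = 0.0506). Cdk18, of the PCTAIRE kinases, fell by 1.21 ± 0.24 (381 ± 108 in BPD and 712 ± 8.02 in GFP livers, limma adjusted p = 0.00596). The transcriptional kinases Cdk8 (-0.37 ± 0.16) and Cdk9 (0.02 ± 0.17), the neuronal kinase Cdk5 (-0.40 ± 0.19) and the CDK-activating kinase Cdk7 (0.10 ± 0.20) did not pass. Cdk6, the other kinase of D-type cyclins, was too dim to test.

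CDK inhibitors were higher in the same livers. Of 5 measured 4 rose and 0 fell, with a list median of 1.003. Cdkn1a, which p53 induces, had signals of 2079, 1657 and 1514 in BPD livers and 318, 176 and 345 in GFP livers (2.32 ± 0.28). Cdkn1c, an inhibitor of the same family, was at 345 ± 94.9 in BPD and 74.2 ± 28.1 in GFP livers (1.72 ± 0.26). Cdkn1b, the inhibitor of resting cells, rose by 0.74 ± 0.16 and Cdkn2c, which binds Cdk4 and Cdk6, by 1.003 ± 0.19. The limma adjusted p of these 4 ran from 8.7e-04 to 0.00993. All 4 calls held under every alternative run and with any mouse left out, and Cdkn2d (0.35 ± 0.19, limma adjusted p = 0.18) passed only with the deposited scaling (0.0456).

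Of 9 regulators of CDKs and cyclins 5 rose and 0 fell, with a list median of 0.93. Cdc20, which with the anaphase-promoting complex destroys mitotic cyclins, was at 1802, 1621 and 875 in BPD livers and 172, 158 and 65.7 in GFP livers (3.01 ± 0.35, limma adjusted p = 7.4e-04). Its order of mice was close to that of Ccnb2 and Cdk1. The CDK-binding subunits Cks1b (1.60 ± 0.15) and Cks2 (1.04 ± 0.16) and the activating phosphatases Cdc25a (1.04 ± 0.19) and Cdc25b (0.93 ± 0.19) made up the other 4. The inhibitory kinase Wee1 (-0.41 ± 0.22), the ubiquitin ligase subunits Skp2 (-0.10 ± 0.20) and Fbxw7 (-0.17 ± 0.22) and the late activator Fzr1 (0.14 ± 0.20) did not pass, though without BPD mouse 36 the difference of Wee1 was -0.67 (limma adjusted p = 0.0205).

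Of 11 genes for E2F factors, pocket proteins and related regulators 5 rose and 1 fell, with a list median of 0.51. The pocket proteins went opposite ways. Rbl1, an E2F target that accumulates in cycling cells, rose by 1.97 ± 0.21 (412 ± 44.2 in BPD and 74.1 ± 22.1 in GFP livers), whereas Rbl2, typical of resting cells, fell by 0.77 ± 0.16 (289 ± 41.1 in BPD and 405 ± 21.8 in GFP livers). Their limma adjusted p were 5.6e-04 and 0.00841, and Rbl2 did not pass with the deposited scaling (-0.47, limma adjusted p = 0.0528). E2f8, an atypical E2F that represses, rose by 1.82 ± 0.32, and Tfdp1, the dimer partner of E2Fs, by 0.78 ± 0.15. The smaller rises of E2f1 (0.82 ± 0.24, limma adjusted p = 0.0316) and Rb1 (0.51 ± 0.16, limma adjusted p = 0.0394) kept their direction but not always their call. Both calls were lost without BPD mouse 28, BPD mouse 36, GFP mouse 22 or GFP mouse 29, or with the Gapdh covariate, so that 3 of the 11 rose, and without the filter, where 3 of 13 rose. Rb1 also lost its call without BPD mouse 23 or GFP mouse 31 (limma adjusted p of 0.0584 and 0.115), so it did not pass whichever mouse was left out. In the settings that lost the call the differences were 0.65 to 0.82 for E2f1 and 0.43 to 0.56 for Rb1. Foxm1, which activates G2/M genes, did not pass (0.27 ± 0.26), except without BPD mouse 23 (0.58, limma adjusted p = 0.0468).

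Of 17 replication and mitosis markers 16 rose and 0 fell, with a list median of 2.00, and this count stayed at 16 whichever mouse was left out. In 7 of the 16 the GFP mean lay under the 98.8 of the filter, so these passed it through their BPD livers. In the fit without the filter 19 of all 20 named markers rose and 0 fell. Cdt1, a licensing factor, rose by 2.00 ± 0.17 (limma adjusted p = 2.8e-04), Mki67, the proliferation antigen, by 3.00 ± 0.32 (938 ± 186 in BPD and 86.2 ± 41.4 in GFP livers), and Pcna, the replication clamp, by 1.36 ± 0.23. Pcna was at 2300, 3775 and 3833 in BPD livers 23, 28 and 36, in the order of the E-type cyclins, whereas Mki67 was at 1111, 963 and 741, in the order of Ccnb2. The member that did not pass was Tk1, the thymidine kinase (395 ± 54.5 in BPD and 428 ± 74.8 in GFP livers, -0.41 ± 0.18, limma adjusted p = 0.124).

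**Figure D4:**
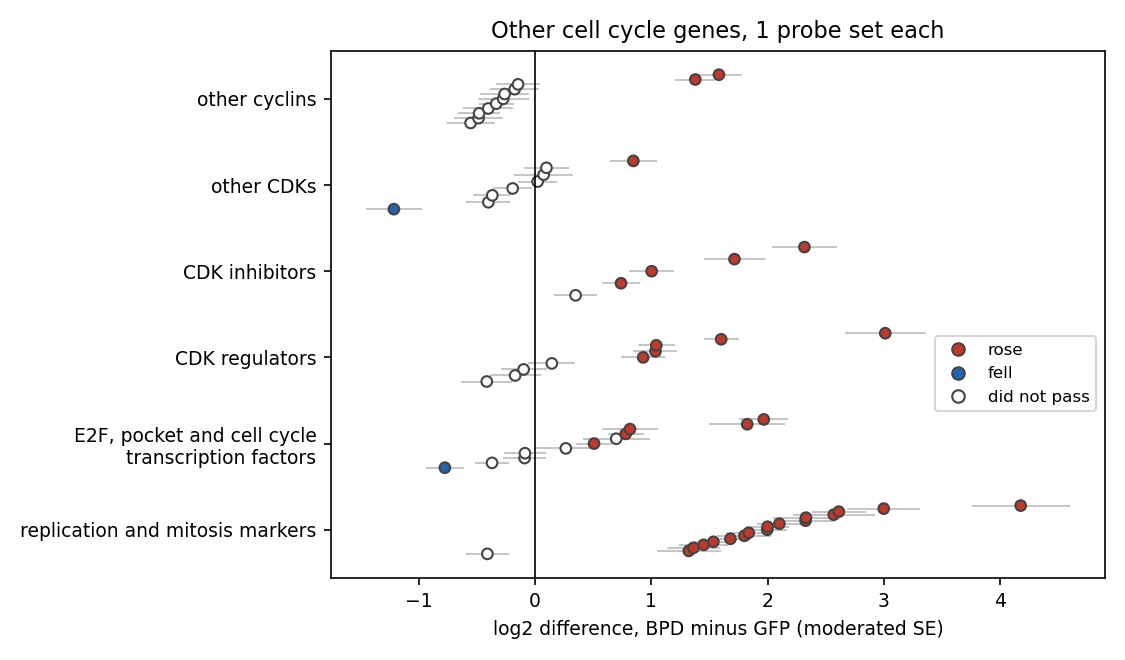
Log2 difference (BPD minus GFP, x axis, with moderated SE) of 61 other cell cycle genes in 6 lists, 1 point per gene. Red rose, blue fell and white did not pass. The replication and mitosis markers other than Tk1 lie at 1.32 or above, while most other cyclins and CDKs lie about 0.

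The genes most like 3 of the members over the 6 arrays were found by Pearson r of centred log2 values among 8142 other genes. The groups' difference enters this measure, so it orders likeness and tests nothing. For Ccnd1 they were Fndc10 (r = 0.996), the collagen chain gene Col1a2 (r = 0.994) and the neutrophil granule gene Ngp (r = 0.993). Col1a2, like Ccnd1, was high in BPD livers 23 and 28 and not in 36, with 3053, 2174 and 388 in BPD livers and 309, 294 and 339 in GFP livers. For Ccne2 they were Mdm2, the ubiquitin ligase of p53 (r = 0.998), the histone chaperone gene Asf1b (r = 0.997) and Rpia, an isomerase of the pentose phosphate pathway (r = 0.995). Mdm2 was at 1316, 1640 and 1710 in BPD livers and 591, 615 and 522 in GFP livers, with the same order of BPD mice as Ccne2. For Cdk1 they were the macrophage elastase gene Mmp12 (r = 0.999), Hmmr, a spindle-associated hyaluronan receptor (r = 0.999), and the tropomyosin gene Tpm4 (r = 0.998). An r over 0.95 was reached by 69 genes for Ccnd1, 122 for Ccne2 and 264 for Cdk1, so the genes named are the first of many.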

How the data were processed

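Liver RNA of 6 mice was measured on 1-colour arrays, 3 BPD and 3 GFP. The deposited values are linear signal intensities per probe set, made with MAS5 per the submitters' processing notes. Sources used here give no MAS5 version. On each array the intensities had a mean of 499.9 after trimming 2% at each end. All 6 columns were used and 0 were unused. After removal of 64 control probe sets, log2(signal + 16.3) was taken, the constant being 10% of the median of all values. Array medians differed 1.46-fold, over the limit of 25%, so arrays were centred on their medians. Probe sets above the 40th percentile of the mean (signal 98.8) were kept, which left 13575. They were fitted with limma 3.58.1 in R 4.3.3 (lmFit, eBayes with trend, 4 residual and 5.44 prior degrees of freedom). For lists, the brightest kept probe set stood for a gene. The fit was tested on simulated data.

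Of 22626 probe sets 20380 have 1 symbol, 691 several and 1555 none, and Entrez identifiers changed 0 symbols. Members and lists were chosen with earlier results of these data known. Named are all member probe sets, up to 4 genes with the smallest p per list, a fixed set (Cdkn1a, Cdkn1b, Cdk2, Cdk6, E2f1, Rb1, Mki67, Pcna), the PFK-2 family and the 3 likest genes of Ccnd1, Ccne2 and Cdk1. Other genes named were chosen after their values were seen. Errors are SD for signals and SE for log2 differences. The mice are separate animals. The number of arrays limits the precision. Alternatives were 2 other scalings, 2 other constants, no filter, robust eBayes, no trend, the Gapdh ratio as a covariate, and each mouse left out.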

Additional observations from a re-analysis of the deposited data

How the results depend on the processing

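No paired analysis was possible because the mouse numbers are not shared between the groups. Of 238 values of the 17 tested member probe sets under the alternatives, 215 kept their direction and side of the threshold, 15 lost and 7 gained a call, and 1 reversed (Ccnd2 1416122_at, not called, from -0.0058 without BPD mouse 23 to 0.33 without BPD mouse 36). The number of member probe sets called ran from 7 to 11 with 1 mouse left out, the 7 being without BPD mouse 28, and from 10 to 14 under the other alternatives. All were higher in BPD livers. Over all probe sets the calls ran from 2006 (without BPD mouse 28) to 3991 with 1 mouse left out, and from 2891 to 3885 otherwise. Among the 61 genes of the lists 32 to 37 were called. The shifts between pairs of members kept their sign under quantile normalization and both other constants. The log2 folds of Ccne2 and Ccnb2, whose GFP signals lie near the added constant, ran from 2.20 to 3.14 and from 2.06 to 3.00. Signals near the constant set no firm fold.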
